A study of Mus musculus with 6 samples.

Results

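Enzymes that oxidise, conjugate or hydrolyse foreign chemicals and reactive aldehydes were followed in hearts of Mdx/Utrn dKO males, mice without dystrophin or utrophin that serve as a model of Duchenne muscular dystrophy with heart disease. Of the 6 hearts, 3 came from mice given setanaxib, named in the labels as a Nox4 inhibitor, at 60 mg/kg/day for 12 weeks by oral gavage, and 3 from mice given corn oil, the vehicle, in the same way. All mice carried the same genotype and were 2 to 3 months old when dosing began, and no heart without the mutations or without gavage is part of the comparison. The enzymes were chosen by symbol alone: every gene of the cytochrome P450 (Cyp), glutathione transferase (Gst), aldehyde dehydrogenase (Aldh), aldehyde oxidase (Aox), carboxylesterase (Ces), epoxide hydrolase (Ephx), flavin monooxygenase (Fmo) and sulfotransferase (Sult) families, without pseudogene symbols, which gave 190 of 50385 genes. The labels give each library a number of its own but do not call the 6 hearts separate animals, so every p-value below reflects library-to-library spread, which may be technical.

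Foreign chemicals are cleared in steps. Cytochromes P450, flavin monooxygenases, aldehyde oxidases and carboxylesterases first add or uncover a reactive group, and transferases then attach glutathione or sulfate. The liver does most of this work, and drugs that bind the receptors AhR, CAR or PXR, or that activate the factor NRF2, raise the enzymes through their own response genes. The heart holds few drug-clearing P450s, but it uses aldehyde dehydrogenases against lipid aldehydes, epoxide hydrolases on fatty acid epoxides and retinaldehyde dehydrogenases to make retinoic acid.

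Of the 190 enzymes, 81 were listed at 0 in all 6 libraries, 30 were above 0 somewhere but too low for the test, and 79 were tested. Of the 79, 67 averaged at least 1 CPM (CPM, estimated counts scaled to library size by trimmed mean of M values, TMM), 35 at least 10 CPM and 4 at least 100 CPM. Libraries held 110803307 to 154003318 estimated counts. All 4 heart muscle markers were high in all 6 libraries, with Myh6 at 16260 to 20761 CPM. Tnnt2, Tnni3 and Actc1 were lowest in setanaxib replicate 3, and Actc1 was at 3860 CPM there, against 7882 and 7946 CPM in the other setanaxib hearts and 8125 to 9457 CPM in the vehicle hearts.

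Markers of other tissues stood high in some libraries, and their values are given before the results. In setanaxib replicate 3, the airway genes Scgb1a1 and Bpifa1 were at 598 and 127 CPM, with all 7 lung epithelium markers above 0 and a summed level of 806 CPM. That sum was 0.220 and 0.221 CPM in setanaxib replicates 1 and 2, and 5.31, 0.198 and 24.97 CPM in vehicle replicates 1, 2 and 3. The 6 adipocyte markers summed to 114 CPM in setanaxib replicate 3, against 0.456 and 0.723 CPM in the other setanaxib libraries and 4.19, 0 and 3.94 CPM in the vehicle libraries. Of these, Cidec and Cfd were at 50.2 and 49.4 CPM in setanaxib replicate 3, while the defining gene Adipoq was at 0.0911 CPM there and listed at 0 in the other 5 libraries. The 3 atrial markers summed to 2914 CPM in setanaxib replicate 3 and to 66.5 to 568 CPM in the other 5 libraries. In vehicle replicates 1 and 2, the 6 hepatocyte markers were all above 0 and summed to 27.8 and 59.2 CPM, led by albumin, Alb, at 21.1 and 43.3 CPM. In the other 4 libraries that sum was 0.425 to 6.93 CPM. For this reason values are given with and without setanaxib replicate 3 where it matters, and the part of these markers' tissues in any single result was not tested.

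Between setanaxib and vehicle, no enzyme passed edgeR's quasi-likelihood test after Benjamini-Hochberg adjustment over 20472 genes. The same test called 0.00488% of all genes, which is 1 gene, a lower one. The smallest adjusted p among the enzymes was 0.234, for Aox1. DESeq2 called 3 of the 91 enzymes that it gave an adjusted p, all higher with setanaxib, namely Aox1, Aldh6a1 and Ces1d, where it called 0.86% of 21862 genes higher and 1.45% lower; limma-voom called none. At an unadjusted edgeR p under 0.05, 5 enzymes were higher and 2 were lower, which is 6.33% and 2.53% of the 79, beside 3.76% and 4.69% of all genes tested. The setanaxib libraries lay above all vehicle libraries for 9 enzymes and below all of them for 6. These are 11.4% and 7.59% of the enzymes, beside 8.11% and 9.46% of all genes tested. Counted in both directions together, the enzymes stood close to the whole table, at 8.86% against 8.46% for the unadjusted p and 19.0% against 17.6% for groups that do not overlap.

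**Figure D1:**
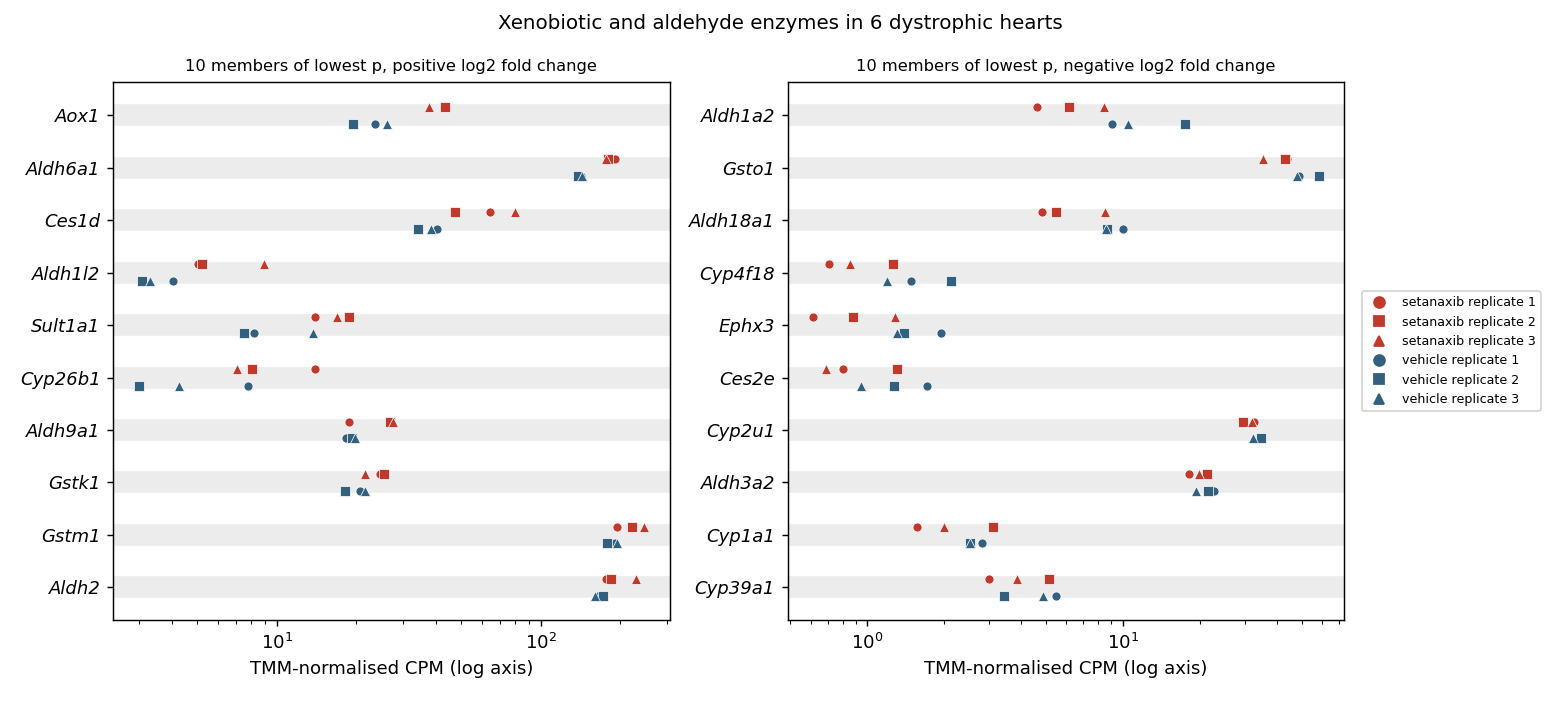
TMM-normalised CPM on a log axis in each library for the 10 enzymes of lowest edgeR p with a positive log2 fold change (left panel) and the 10 with a negative one (right panel), with setanaxib in red above vehicle in blue and 1 point per library. The setanaxib points of Aox1, Aldh6a1, Ces1d, Aldh1l2, Sult1a1 and Aldh2 lie to the right of all vehicle points, and those of Aldh1a2, Gsto1, Aldh18a1 and Ephx3 to the left.

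Aox1 stood first. It encodes an aldehyde oxidase, a molybdenum enzyme of the cytosol that oxidises aldehydes and nitrogen rings of many drugs. It was at 43.1, 43.4 and 37.7 CPM in setanaxib replicates 1, 2 and 3, against 23.5, 19.5 and 26.2 CPM in vehicle replicates 1, 2 and 3. The groups did not overlap, and setanaxib replicate 3 was the lowest of its group. The mean was 41.4 ± 3.20 CPM with setanaxib and 23.1 ± 3.37 CPM with vehicle (SD, n = 3 each), a log2 fold change of 0.84 (SE 0.13). Its p was 0.000611 before and 0.234 after edgeR's adjustment, and 1.8e-05 after adjustment in DESeq2. Without setanaxib replicate 3 the log2 fold change was 0.91 (SE 0.13), and over the 6 fits that leave out a library it lay between 0.73 and 0.94. The exons of Aox1 overlap no other gene in GENCODE M21, and 0.0786% of its 75-base words occur in transcripts of another gene. Its neighbour Aox3, an aldehyde oxidase known mainly from mouse liver, did not share this pattern: it was at 0 in setanaxib replicates 1 and 2, at 14.2 CPM in replicate 3 and at 0.507 to 0.544 CPM in the vehicle hearts. Aox2 was under 1 CPM everywhere and Aox4 was listed at 0 in all libraries.

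Promoters of Aox1, Aldh6a1 and Aldh1a2, enzymes whose groups did not overlap, and of Cyp1a1, the textbook response gene of AhR, are shown because each holds a match to a motif searched. The sequences come from RefSeq on GRCm38.p6, an earlier build than the GRCm39 named for the counts, and run 5′ to 3′ from 250 bases before to 50 bases after the transcription start. Aox1 is at chr1:58029719-58030018 (plus strand), Aldh6a1 at chr12:84450975-84451274 (minus strand, the upstream of 2 starts), Aldh1a2 at chr9:71215539-71215838 (plus strand) and Cyp1a1 at chr9:57697363-57697662 (plus strand). Capitals mark GCGTG, the core bound by AhR with ARNT, on either strand, and TGACNNNGC, the element bound by NRF2.
Aox1: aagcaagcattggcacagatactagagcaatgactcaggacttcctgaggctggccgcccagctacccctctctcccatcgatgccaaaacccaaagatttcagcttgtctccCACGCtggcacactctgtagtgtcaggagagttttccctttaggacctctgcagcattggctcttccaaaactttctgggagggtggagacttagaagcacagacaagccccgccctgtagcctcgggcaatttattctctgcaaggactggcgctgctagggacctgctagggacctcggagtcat
Aldh6a1: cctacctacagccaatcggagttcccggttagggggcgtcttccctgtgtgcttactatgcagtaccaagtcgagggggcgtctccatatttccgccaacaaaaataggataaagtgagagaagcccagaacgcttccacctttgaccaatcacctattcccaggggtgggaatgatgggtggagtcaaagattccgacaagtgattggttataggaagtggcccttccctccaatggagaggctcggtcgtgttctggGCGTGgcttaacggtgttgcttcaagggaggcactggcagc
Aldh1a2: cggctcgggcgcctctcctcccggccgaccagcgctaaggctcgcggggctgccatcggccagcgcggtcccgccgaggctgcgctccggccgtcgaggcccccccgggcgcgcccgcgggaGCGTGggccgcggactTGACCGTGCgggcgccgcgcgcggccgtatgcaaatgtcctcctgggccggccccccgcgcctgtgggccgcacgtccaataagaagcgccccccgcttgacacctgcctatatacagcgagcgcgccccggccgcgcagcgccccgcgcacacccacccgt
Cyp1a1: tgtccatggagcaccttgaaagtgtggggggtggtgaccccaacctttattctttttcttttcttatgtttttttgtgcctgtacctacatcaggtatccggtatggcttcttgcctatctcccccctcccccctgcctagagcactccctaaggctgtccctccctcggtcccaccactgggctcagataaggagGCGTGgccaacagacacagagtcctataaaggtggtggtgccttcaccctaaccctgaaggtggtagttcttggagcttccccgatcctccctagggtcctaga
Each of these 4 held 1 GCGTG core, read on the opposite strand in Aox1, and Aldh1a2 also held 1 TGACNNNGC. The windows of Gsto1, Sult1a1 and Cyp2f2 and the other start of Aldh6a1, read in the same way, held none of the motifs, so the 4 shown are a choice made by their matches. The D-box TTATGTAA of the factors DBP, TEF and HLF and the E-box CACGTG of CLOCK with BMAL1 were searched too and matched in none of these windows. Of all 32851 promoters in the table, 32.4% hold GCGTG, 12.4% TGACNNNGC, 0.938% the D-box and 7.15% the E-box. Of the 74 promoters of the 64 tested enzymes with an entry, 32.4% hold GCGTG, 10.8% TGACNNNGC, 1.35% the D-box and 5.41% the E-box. Such a match is a stretch of letters, not a site shown to be bound.

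The 7 aldehyde dehydrogenase family members grouped here as mitochondrial were at a summed 486, 485 and 532 CPM in the setanaxib hearts, against 429, 429 and 420 CPM in the vehicle hearts. All 7 were tested, 5 with a positive log2 fold change, and the median was 0.25, beside 0.01 over all genes tested, and 0.13 without setanaxib replicate 3. Aldh6a1, the methylmalonate semialdehyde dehydrogenase of valine breakdown, was at 190.3, 179.7 and 176 CPM with setanaxib, against 141.7, 138.8 and 143.8 CPM with vehicle. Its groups did not overlap, and each was narrow, at 182 ± 7.43 CPM with setanaxib and 141 ± 2.49 CPM with vehicle (SD, n = 3 each). The log2 fold change was 0.36 (SE 0.08; edgeR adjusted p = 0.356; DESeq2 adjusted p = 4.83e-05). Exons of Aldh6a1 overlap those of Bbof1, which was at 1.75 to 4.37 CPM in all libraries, and 14.7% of the 75-base words of Aldh6a1 also occur in transcripts of other genes, foremost Bbof1.

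Aldh2, which clears acetaldehyde and the lipid aldehyde 4-hydroxynonenal, was at 176, 185 and 229.7 CPM with setanaxib, against 165, 172 and 160.4 CPM with vehicle. The groups did not overlap, but the highest value was that of setanaxib replicate 3, and the log2 fold change, 0.25 over 6 libraries (SE 0.12, edgeR adjusted p = 0.657), was 0.13 (SE 0.07) without it. Aldh1l2, the mitochondrial formyltetrahydrofolate dehydrogenase, was at 5.02, 5.23 and 8.99 CPM with setanaxib, against 4.04, 3.09 and 3.31 CPM with vehicle, with no overlap (log2 fold change 0.88, SE 0.27, edgeR adjusted p = 0.464). Its log2 fold change was 0.56 (SE 0.16) without setanaxib replicate 3. Its exons overlap those of D10Wsu102e, a gene at 78.6, 37.0 and 56.3 CPM with setanaxib, against 34.4, 31.9 and 34.4 CPM with vehicle. No strand setting is stated for the table, and reads from the stretches where these 2 genes overlap cannot be told apart. Of the 75-base words of Aldh1l2, 12.8% also occur in transcripts of other genes, foremost D10Wsu102e.

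The other mitochondrial members did not move together. Aldh18a1, which makes the precursor of proline, was at 4.82, 5.45 and 8.52 CPM with setanaxib, against 10.02, 8.62 and 8.59 CPM with vehicle. All 3 setanaxib hearts were below the vehicle hearts, replicate 3 only just, and the log2 fold change was -0.54 (SE 0.23, edgeR adjusted p = 0.616). Aldh4a1 and Aldh5a1, which break down proline and GABA, differed by -0.06 (SE 0.10) and 0.10 (SE 0.11) on the log2 scale, with overlapping groups. Aldh4a1 shares 28.7% of its 75-base words with transcripts of other genes, foremost Gm21969, and Aldh5a1 11.8%, foremost 4932702P03Rik. Aldh1b1 was at 23.2 CPM in setanaxib replicate 3 and at 6.13 to 8.81 CPM in the other 5 libraries.

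Of the 10 aldehyde dehydrogenases put in neither the mitochondrial nor the retinaldehyde group, 7 were tested, and none had groups that do not overlap. Log2 fold changes were positive for 6 of the 7, and for 2 without setanaxib replicate 3. Over all genes tested, 51.6% were positive, and 49.5% without that library. Aldh9a1, which makes an intermediate of carnitine synthesis, was at 18.8, 26.9 and 27.6 CPM with setanaxib, against 18.3, 19.2 and 19.8 CPM with vehicle. Setanaxib replicate 1 lay within the vehicle range (log2 fold change 0.35, SE 0.16, edgeR adjusted p = 0.634). Aldh3a2, the fatty aldehyde dehydrogenase, was at 18.03, 21.4 and 19.8 CPM with setanaxib and at 22.7, 21.4 and 19.3 CPM with vehicle (log2 fold change -0.10, SE 0.11). Aldh7a1 and Aldh16a1 differed by 0.12 (SE 0.10) and 0.03 (SE 0.13) on the log2 scale.

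Genes that make and remove retinoic acid were read together. Aldh1a2, the retinaldehyde dehydrogenase of the epicardium and of stromal cells, was at 4.62, 6.16 and 8.45 CPM with setanaxib, against 9.07, 17.5 and 10.4 CPM with vehicle. The groups did not overlap, and the spread was widest through vehicle replicate 2. The log2 fold change was -0.95 (SE 0.33, edgeR adjusted p = 0.513), and -1.19 (SE 0.34) without setanaxib replicate 3. Without vehicle replicate 2 it was -0.61. Cyp26b1, which degrades retinoic acid, was at 13.9, 8.06 and 7.05 CPM with setanaxib, against 7.81, 3.00 and 4.27 CPM with vehicle. These groups overlapped by the highest vehicle heart (log2 fold change 0.95, SE 0.42, edgeR adjusted p = 0.623). Aldh1a1, another retinaldehyde dehydrogenase, stood at 41.8 CPM in setanaxib replicate 3 and at 9.79 to 14.0 CPM in the other 5 libraries, so that its log2 fold change of 0.81 (SE 0.57) was -0.17 (SE 0.18) without that library. Aldh1a3 was at 0.377, 0.745 and 3.999 CPM with setanaxib and at 1.89 to 2.36 CPM with vehicle. All 5 fibroblast markers also had negative log2 fold changes, and their summed level was 439 to 738 CPM with setanaxib and 633 to 860 CPM with vehicle. Of these, Col1a1 was at 103.4, 147.8 and 223.5 CPM with setanaxib, against 327.3, 240.3 and 328.6 CPM with vehicle (log2 fold change -0.92, edgeR adjusted p = 0.490). Lum was likewise below every vehicle heart (log2 fold change -0.57, edgeR adjusted p = 0.450). Pdgfra, Dcn and Tcf21 overlapped, with Tcf21 at a log2 fold change of -0.03 (SE 0.42). Among mesothelium markers, Wt1 was at 5.54, 2.87 and 9.78 CPM with setanaxib and at 5.52, 5.34 and 4.31 CPM with vehicle. Its log2 fold change was 0.26, and -0.26 without setanaxib replicate 3. Msln was at 0.747, 0 and 11.1 CPM with setanaxib and at 0 in the vehicle hearts, and Krt19 was listed at 0 throughout. The part of fibroblasts or mesothelium in the Aldh1a2 values was not tested. Fewer cells of a type cannot be told apart here from less RNA per cell.

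Carboxylesterases cleave ester drugs and stored fat. Of 18, 4 were tested and 10 were listed at 0 in all libraries. Ces1d, an esterase and triglyceride hydrolase of liver, fat and lung, was at 64.0, 47.3 and 80.1 CPM with setanaxib, against 40.6, 34.4 and 38.6 CPM with vehicle. The groups did not overlap, and setanaxib replicate 3, the library with high airway markers, was highest. The mean was 63.8 ± 16.4 CPM with setanaxib and 37.8 ± 3.14 CPM with vehicle (SD, n = 3 each). The log2 fold change, 0.75 over 6 libraries (SE 0.20; edgeR adjusted p = 0.416; DESeq2 adjusted p = 0.0243), was 0.56 (SE 0.15) without setanaxib replicate 3. Ces2e and Ces2g differed by -0.49 (SE 0.36) and 0.16 (SE 0.45) on the log2 scale, with overlapping groups.

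Sulfotransferases were mostly silent, with 16 of 20 listed at 0 throughout. Sult1a1, which sulfates phenols, was at 14.0, 18.8 and 16.96 CPM with setanaxib, against 8.22, 7.52 and 13.8 CPM with vehicle. The groups did not overlap, although vehicle replicate 3 lay just under setanaxib replicate 1 (log2 fold change 0.75, SE 0.26, edgeR adjusted p = 0.513). Its exons overlap those of Sgf29, at 8.70 to 9.68 CPM in all libraries, and Sult1a1 is uncertain without the strand setting. Sult5a1 was tested at a mean under 1 CPM, and Sult1d1 was at 2.52 CPM in setanaxib replicate 3 and at 0 elsewhere.

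Glutathione transferases, which join glutathione to reactive molecules, included the enzyme of highest level per length of annotated exon. Gstm1 led all enzymes, at 149.7 CPM per kilobase of exon with setanaxib and 127.6 with vehicle. The levels of Gstp1, at 45.7 and 40.4, and of the epoxide hydrolase Ephx2, at 47.1 and 40.3 CPM per kilobase, followed and were close to each other. All 6 mu enzymes had positive log2 fold changes, with a median of 0.16, where 51.6% of all genes tested were positive. Without setanaxib replicate 3 these were 5, since Gstm6, at 3.29 CPM in that library and 1.04 to 1.28 CPM in the other 5, had a log2 fold change of 0.59 with it and -0.16 without it. Gstm1 was at 194, 221 and 247 CPM with setanaxib, against 190, 178.9 and 195 CPM with vehicle, so that setanaxib replicate 1 lay within the vehicle range (log2 fold change 0.23, SE 0.11, edgeR adjusted p = 0.654), and the log2 fold change was 0.15 (SE 0.08) without setanaxib replicate 3. Gstm7 did not overlap, at 18.4, 20.1 and 18.3 CPM with setanaxib and 17.02, 14.9 and 18.2 CPM with vehicle, yet vehicle replicate 3 lay just under the setanaxib hearts.

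Among the other classes of transferase, Gstp1 was at 75.1, 69.0 and 68.0 CPM with setanaxib, against 61.5, 67.7 and 58.4 CPM with vehicle (log2 fold change 0.18, SE 0.09, edgeR adjusted p = 0.682). These groups did not overlap, although vehicle replicate 2 lay just under setanaxib replicate 3. Gstp1 shares 29.2% and its neighbour Gstp2 50.1% of their 75-base words with transcripts of other genes, foremost with each other, and Gstp2 had a log2 fold change of 0.18 (SE 0.10). Gsto1, which reduces dehydroascorbate, went the other way, at 43.7, 43.1 and 35.4 CPM with setanaxib, against 48.7, 58.2 and 47.7 CPM with vehicle. Its groups did not overlap (log2 fold change -0.34, SE 0.13, edgeR adjusted p = 0.548). Gstk1 of mitochondria and peroxisomes was at 24.6, 25.6 and 21.6 CPM with setanaxib and at 20.7, 18.1 and 21.6 CPM with vehicle (log2 fold change 0.25, SE 0.11, edgeR adjusted p = 0.634). The alpha enzyme Gsta4, which conjugates 4-hydroxynonenal, was level at 26.2 to 28.8 CPM with setanaxib and 26.0 to 27.2 CPM with vehicle (log2 fold change 0.04, SE 0.08). Gsta1 and Gsta2 were under 1 CPM and are uncertain, since Gsta1 shares 84.7% of its words with other genes, foremost Gm3776, and Gsta2 36.6%, foremost with Gsta1.

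Epoxide hydrolases open the epoxides that P450s make. Ephx2, the soluble enzyme that ends the signal of fatty acid epoxides in vessels, was at 117, 138 and 96.2 CPM with setanaxib, against 99.9, 110.6 and 89.7 CPM with vehicle (log2 fold change 0.23, SE 0.16, edgeR adjusted p = 0.761). Ephx1, the microsomal enzyme of drug clearance, was at 25.5, 33.1 and 47.0 CPM with setanaxib and at 34.7, 24.4 and 33.4 CPM with vehicle. Ephx3 was low, at 0.613, 0.882 and 1.28 CPM with setanaxib, against 1.94, 1.39 and 1.31 CPM with vehicle, with no overlap (log2 fold change -0.74, SE 0.34, edgeR adjusted p = 0.636). Cyp2j6, a mouse relative of the human epoxygenase of heart muscle, was at 3.88, 4.79 and 6.72 CPM with setanaxib and at 5.18, 3.96 and 5.20 CPM with vehicle (log2 fold change 0.10, SE 0.24).

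Flavin monooxygenases, which oxidise nitrogen and sulfur atoms of drugs, spread widely among the setanaxib hearts. Fmo1 was at 16.97, 35.0 and 50.4 CPM with setanaxib, against 32.4, 30.0 and 33.5 CPM with vehicle. Fmo2 was at 20.4, 48.1 and 53.7 CPM with setanaxib, against 35.9, 28.4 and 45.4 CPM with vehicle. In both, setanaxib replicate 1 was the lowest of the 6 hearts and replicate 3 the highest, and the log2 fold changes of 0.10 (SE 0.36) and 0.16 (SE 0.37) rest on that spread. The fibroblast markers Pdgfra, Dcn and Tcf21 were also lowest in setanaxib replicate 1, and its part was not tested. Over all 79 tested enzymes, setanaxib replicate 1 was the lowest library for 34, with ties at 0 counted to it. Vehicle replicate 2 was the lowest for 24, without ties with setanaxib libraries or vehicle replicate 1. The same counts over all genes tested were not made, so these are no trait of the enzymes.

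**Figure D2:**
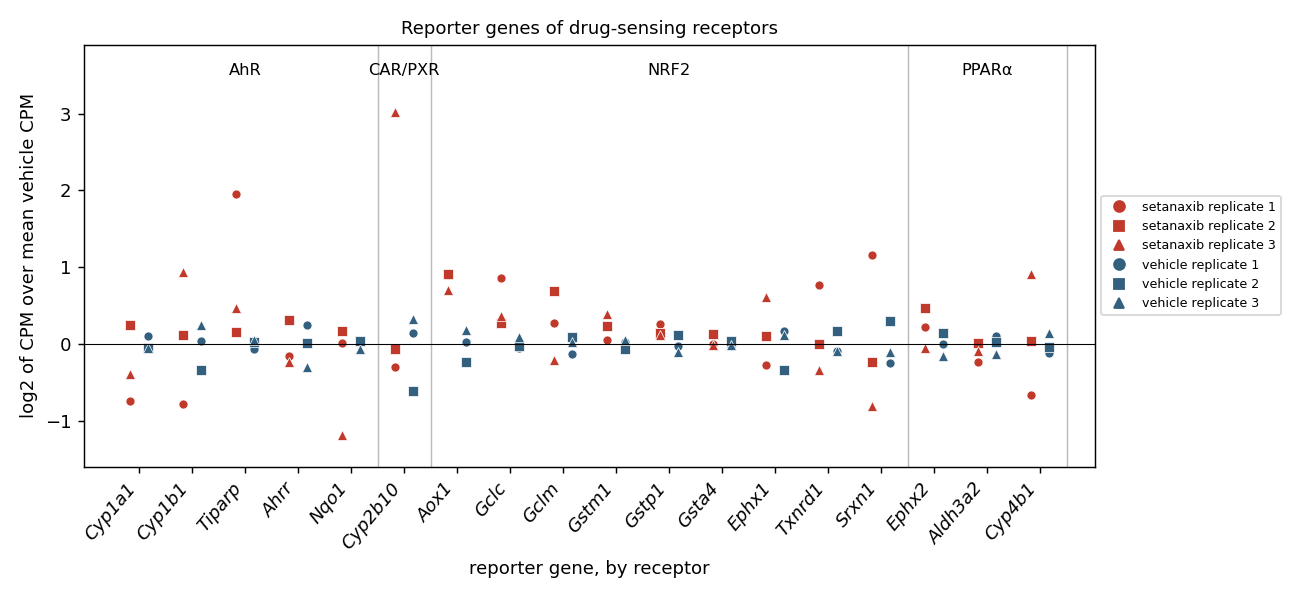
Log2 of each library's CPM over the mean vehicle CPM for reporter genes of AhR, CAR or PXR, NRF2 and PPARα, with setanaxib in red left of vehicle in blue; reporters listed at 0 in any library are not drawn. Aox1, Gclc, Gstp1 and Tiparp are above the vehicle hearts in all 3 setanaxib hearts, Gstp1 only just in replicate 3 and Tiparp mainly in replicate 1. Cyp2b10 is far above the vehicle hearts in setanaxib replicate 3, and Cyp1a1 lies on both sides. Srxn1 is far above them in setanaxib replicate 1 and below all of them in replicate 3.

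Response genes of drug-sensing receptors were read one by one. For AhR, Cyp1a1 was at 1.56, 3.10 and 1.99 CPM with setanaxib, against 2.80, 2.52 and 2.52 CPM with vehicle, which is -0.24 on the log2 scale (SE 0.28, edgeR adjusted p = 0.879). Cyp1a2 was listed at 0 in all 6 libraries. Cyp1b1, a P450 of vessels and stroma, was at 8.45, 15.8 and 27.9 CPM with setanaxib and at 14.9, 11.45 and 17.3 CPM with vehicle, and the AhR repressor Ahrr had a log2 fold change of -0.01. Tiparp, which also answers to AhR, was at 31.7, 9.10 and 11.4 CPM with setanaxib and 7.80, 8.31 and 8.45 CPM with vehicle. Its setanaxib hearts all lay above the vehicle hearts, mainly through replicate 1 (edgeR adjusted p = 0.615). Of 6 tested AhR reporters, 0 passed edgeR, DESeq2 or limma-voom, and 0 had an unadjusted edgeR p under 0.05.

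For CAR and PXR, Cyp2b10 was at 0.598, 0.700 and 5.97 CPM with setanaxib, against 0.808, 0.479 and 0.919 CPM with vehicle. It was high in setanaxib replicate 3 alone, and the log2 fold change of 1.72 (SE 0.95) was -0.18 (SE 0.38) without it. Cyp3a11 and Cyp2c29 were listed at 0 in all setanaxib hearts and were at 0.321 and 0.313 CPM in vehicle replicate 1, 0.691 and 0.445 CPM in vehicle replicate 2 and 0 in vehicle replicate 3. The vehicle hearts with these liver enzymes are those with Alb and Apob. Ces2a and Sult1e1 were listed at 0 throughout. The gene of CAR itself, Nr1i3, was at 9.55, 9.80 and 13.2 CPM with setanaxib and 9.66, 8.93 and 7.04 CPM with vehicle, and that of AhR, Ahr, at 8.53, 15.2 and 14.9 CPM with setanaxib and 14.4, 13.3 and 16.5 CPM with vehicle.

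For NRF2, 9 of 10 tested reporters had positive log2 fold changes, with a median of 0.22, and 2 had an unadjusted edgeR p under 0.05, Aox1 and Gclc. Over all genes tested, 51.6% were positive and 3.76% were higher at that p. Gclc, the catalytic subunit that starts glutathione synthesis, was at 19.97, 13.2 and 14.1 CPM with setanaxib, against 10.5, 10.7 and 11.6 CPM with vehicle, with no overlap (log2 fold change 0.52, edgeR adjusted p = 0.508). Nqo1, a quinone reductase, was at 44.3, 49.2 and 19.3 CPM with setanaxib and at 45.0, 45.1 and 41.8 CPM with vehicle. Srxn1, which repairs peroxiredoxins, was at 43.7, 16.6 and 11.2 CPM with setanaxib and 16.5, 24.1 and 18.2 CPM with vehicle. The reporters did not rank the 3 setanaxib hearts in 1 order, and over all genes edgeR called 0 of the 10, DESeq2 1 (Aox1) and limma-voom 0. Nfe2l2, the gene of NRF2, had a log2 fold change of -0.10. For PPARα, Cyp4a10 and Cyp4a14 were listed at 0 in all libraries, and Cyp4b1, a lung and vessel enzyme, was at 9.87, 16.0 and 29.4 CPM with setanaxib and at 14.4, 15.2 and 17.2 CPM with vehicle.

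P450s of drug clearance were mostly listed at 0. Of 45 members of the CYP2 (without CYP2J and CYP2R) and CYP3 subfamilies, 26 were listed at 0 throughout and 8 were tested. Their summed level was 58.2, 57.1 and 437 CPM with setanaxib, against 64.0, 54.6 and 71.5 CPM with vehicle, so that setanaxib replicates 1 and 2 lay within the vehicle range and replicate 3 far above it. The fatty acid hydroxylase Cyp2u1 and Cyp2d22, whose values are given below, made up most of this sum in every library but setanaxib replicate 3. Cyp2f2, the naphthalene-activating P450 of club cells in mouse airways, was at 222 CPM in setanaxib replicate 3 and at 0 in replicates 1 and 2, against 1.96, 0.493 and 6.56 CPM with vehicle. Cyp2e1, known for ethanol and made in liver, fat and lung, was at 0, 0.281 and 112 CPM with setanaxib, against 2.79, 1.09 and 3.999 CPM with vehicle. Cyp2s1, an airway P450, was at 0.621, 0 and 18.7 CPM with setanaxib and at 0.832, 0.383 and 1.08 CPM with vehicle. Among the vehicle hearts, Cyp2f2 and the airway gene Scgb1a1 were both highest in replicate 3 and lowest in replicate 2, where Scgb1a1 was listed at 0.

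**Figure D3:**
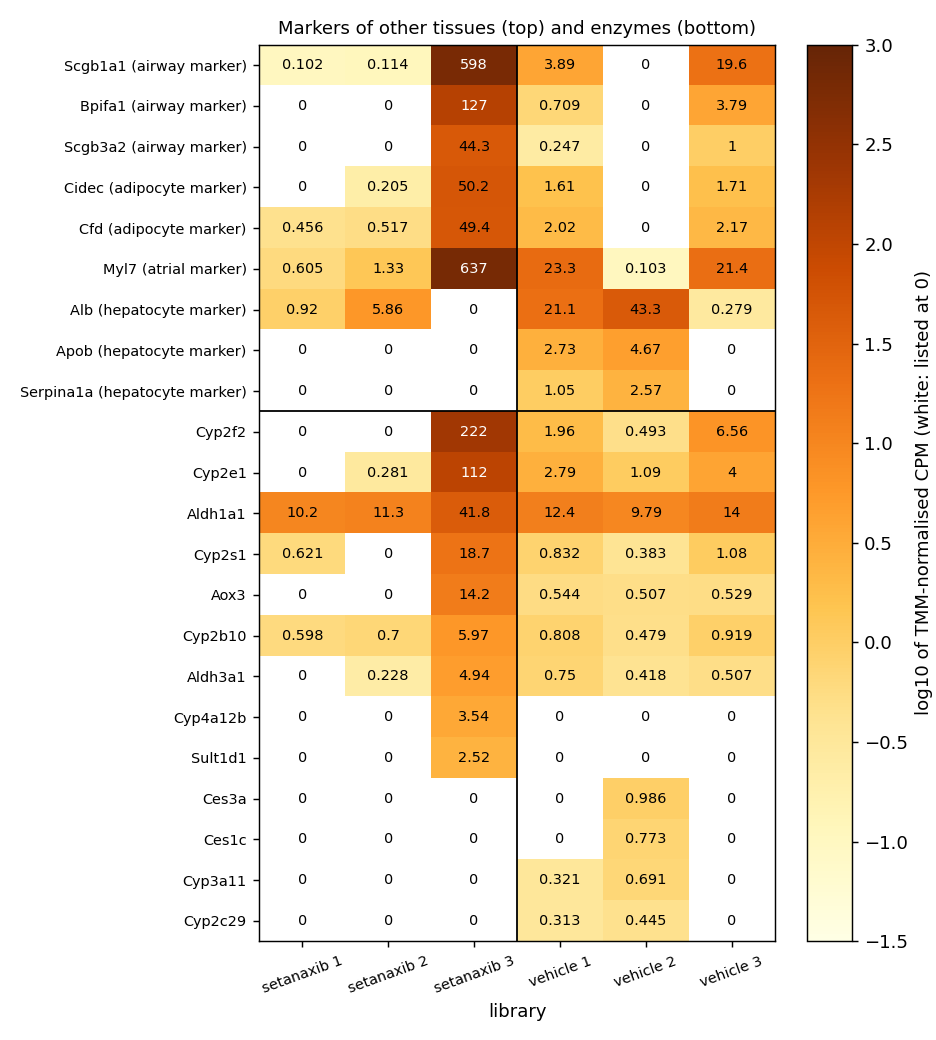
TMM-normalised CPM in each library, printed in each cell and coloured on a log10 scale, for markers of airway, fat, atrium and liver above the line and for enzymes below it, with setanaxib hearts left of vehicle hearts. Cyp2f2, Cyp2e1 and Aox3 are high in setanaxib replicate 3, where Scgb1a1 is at 598 CPM, and Cyp3a11, Cyp2c29, Ces1c and Ces3a are above 0 only in vehicle replicate 2 or in vehicle replicates 1 and 2, where Alb is highest.

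Other P450s followed. Cyp2u1, which hydroxylates long-chain fatty acids, was at 32.5, 29.5 and 32.0 CPM with setanaxib and at 34.5, 34.7 and 32.1 CPM with vehicle (log2 fold change -0.11, SE 0.08, edgeR adjusted p = 0.802). Cyp2d22 was at 20.9, 24.1 and 41.0 CPM with setanaxib and at 20.4, 13.5 and 24.4 CPM with vehicle (log2 fold change 0.56, SE 0.32). Of the 20 CYP4 enzymes 6 were tested, with a median log2 fold change of 0.06, and -0.33 without setanaxib replicate 3. Cyp4f18, which inactivates leukotriene B4 in myeloid cells, was at 0.708, 1.25 and 0.857 CPM with setanaxib, against 1.48, 2.11 and 1.19 CPM with vehicle (log2 fold change -0.76, SE 0.33, edgeR adjusted p = 0.616). All 5 macrophage markers read beside it were below every vehicle heart in all 3 setanaxib hearts, where 9.46% of all genes tested were. Lyz2 among them was at 56.8, 79.9 and 74.0 CPM with setanaxib, against 111.4, 141.5 and 105.8 CPM with vehicle. After adjustment, edgeR called 0 of the 5 (lowest edgeR adjusted p = 0.361), DESeq2 4 and limma-voom 0. The part of macrophage number in Cyp4f18 was not tested.

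Of the 18 P450s of sterols, steroids, bile acids, vitamin D and retinoids, 10 were tested, 9 of them with negative log2 fold changes and a median of -0.13, where 51.6% of all genes tested were positive. Of the 10, 7 were negative without setanaxib replicate 3, with a median of -0.21. Cyp27a1, the mitochondrial sterol hydroxylase, was at 13.3, 18.3 and 14.3 CPM with setanaxib and at 16.4, 12.4 and 17.2 CPM with vehicle. Cyp51, of cholesterol synthesis, was at 8.37, 6.88 and 6.34 CPM with setanaxib and at 7.76, 7.94 and 7.07 CPM with vehicle, and Cyp39a1 at 2.99, 5.15 and 3.86 CPM with setanaxib and 5.49, 3.43 and 4.87 CPM with vehicle. The groups overlapped in all 3. Cyp8b1 and Cyp2r1 did not overlap but were under 1 CPM in every library. Cyp27b1, which activates vitamin D, was at 1.57 CPM in setanaxib replicate 1 and listed at 0 in the other 5 libraries.

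The effect of setanaxib replicate 3 on the whole set was measured. It was the highest library for 41 of the 79 tested enzymes, or 51.9%, beside 26.3% of all genes tested. For 11 enzymes it was at least 2 times the next library, which is 13.9% beside 2.48% of all genes tested. These were Cyp2f2, Cyp2e1, Aldh1a1, Aldh1b1, Cyp2s1, Aox3, Aldh1l1, Cyp2b10, Aldh3a1, Gstm6 and Ces1e. All 11 had a positive log2 fold change over 6 libraries, and 10 had a negative one without setanaxib replicate 3. Choosing the 11 by that library favours a positive value with it and a lower one without it. Of the 79 enzymes, 52 had a positive log2 fold change over 6 libraries, which is 65.8% beside 51.6% of all genes tested. Without setanaxib replicate 3 these were 34, or 43.0% beside 49.5%. The median log2 fold change of the 79 was 0.16 with that library, beside 0.01 over all genes tested, and -0.10 over the same 79 without it, beside -0.0038 over all genes tested.

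**Figure D4:**
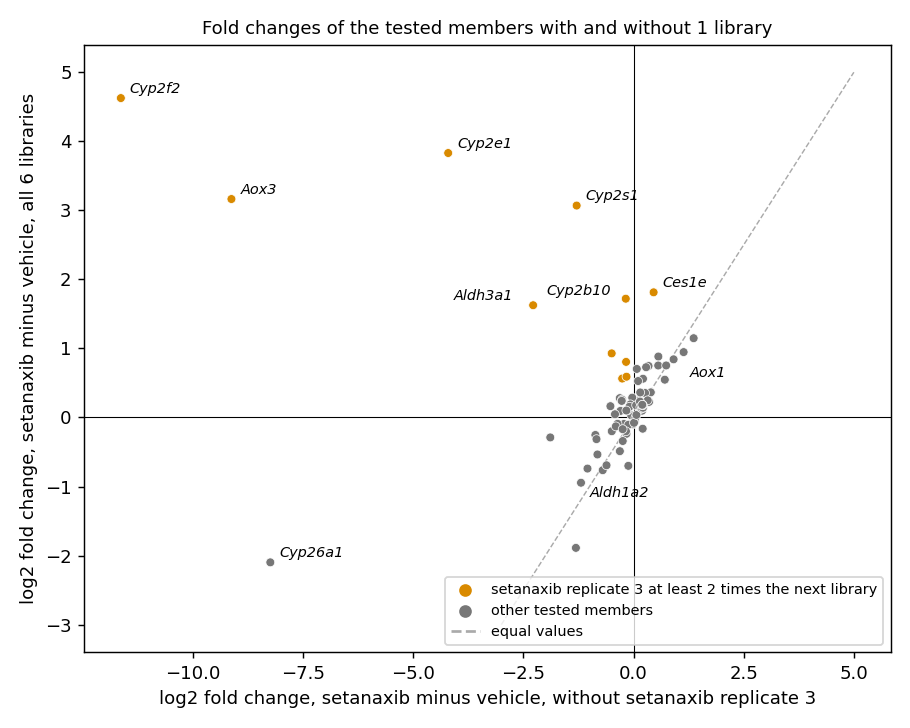
Log2 fold change of each tested enzyme over all 6 libraries (vertical axis) against the value without setanaxib replicate 3 (horizontal axis), with the 11 enzymes for which that library is at least 2 times the next in orange. Aox1 and Aldh1a2 lie close to the line of equal values, while Cyp2f2, Cyp2e1, Cyp2s1 and Aox3 change sign; the 3 points farthest left, Cyp2f2, Aox3 and Cyp26a1, are at 0 in both remaining setanaxib hearts, and their values are no bound.

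Enzymes too low for the test followed the same libraries. Of the 30, 11 were above 0 in setanaxib replicate 3 alone, among them Cyp4a12b at 3.54 CPM and Aldh3b2 at 3.20 CPM. Another 13 were above 0 only in vehicle replicate 2 or in vehicle replicates 1 and 2, at no more than 0.986 CPM, among them the liver enzymes Ces3a, Ces1c, Cyp3a11 and Cyp2c29. The remaining 6 were above 0 in other single libraries or pairs. Estimated counts can be listed at 0 for reasons other than absence of a transcript, so no fold change is given for these genes.

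Genes that supply or surround the enzymes were counted in 6 lists. Of the 10 tested receptors and partners, 6 had positive and 4 negative log2 fold changes (median 0.07), and none had an unadjusted p under 0.05. The one of lowest p on the negative side, Rxrb, the gene of a retinoid X receptor, had a log2 fold change of -0.23, and -0.0047 without setanaxib replicate 3. Of the 8 electron donors of P450s, 3 were positive and 5 negative (median -0.14). Fdx2, a mitochondrial ferredoxin and the gene of lowest p, was at 0.747, 1.17 and 0.592 CPM with setanaxib, against 1.29, 2.46 and 1.48 CPM with vehicle, with no overlap (log2 fold change -1.06, SE 0.38, edgeR adjusted p = 0.532). Cyb5r3, the cytochrome b5 reductase, named after its values were seen, was at 67.5, 87.3 and 86.1 CPM with setanaxib, against 97.2, 92.9 and 103.9 CPM with vehicle (log2 fold change -0.29, SE 0.12, edgeR adjusted p = 0.614). Por, the reductase that feeds microsomal P450s, was at 35.2, 32.0 and 55.0 CPM with setanaxib and at 29.9, 34.6 and 30.4 CPM with vehicle, a log2 difference of 0.36 that was 0.09 without setanaxib replicate 3. Of 17 tested conjugating enzymes and donors, 13 were positive (median 0.09), and of 25 tested reductases and oxidases, 16 were positive (median 0.04). Without setanaxib replicate 3 these were 11 and 15. Over all genes tested, 51.6% were positive, and 49.5% without that library. On the negative side, the genes of lowest p were Ugp2, which makes UDP-glucose, and Maoa, an amine oxidase. Their log2 fold changes were -0.50 and -0.37 (edgeR adjusted p = 0.705 and 0.769). Adh1 and Mocs1 of the last list were chosen after their values were seen. Adh1, a retinol and alcohol dehydrogenase, was at 7.23, 8.12 and 26.7 CPM with setanaxib, against 4.84, 5.91 and 5.06 CPM with vehicle, and Maob, the amine oxidase, at 25.4, 26.1 and 26.9 CPM, against 22.0, 21.0 and 20.04 CPM. Mocs1, which starts the molybdenum cofactor that Aox1 needs, was at 15.8, 10.99 and 13.4 CPM with setanaxib, against 8.83, 9.10 and 10.4 CPM with vehicle. These 3 did not overlap between the groups (edgeR adjusted p = 0.548 for Adh1, 0.418 for Maob and 0.490 for Mocs1). Mocs2, Gphn and Mocos, also genes of the molybdenum cofactor in that list, overlapped, at log2 fold changes of 0.12, 0.09 and -0.02.

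Of 17 tested drug transporters, 7 were positive and 10 negative (median -0.03, and -0.13 without setanaxib replicate 3). Slc22a5, the carnitine carrier, was at 17.4, 18.8 and 19.8 CPM with setanaxib, against 15.5, 15.8 and 15.7 CPM with vehicle, and Abcc1, an exporter of glutathione conjugates, at 39.8, 43.5 and 43.9 CPM, against 45.8, 51.7 and 52.6 CPM. Over these 5 lists edgeR called 0 genes after adjustment and limma-voom 0, and DESeq2 called 1, Maob. A list of clock genes was read last. It holds Dbp, Tef and Hlf, whose factors govern detoxification genes in mouse liver and kidney, with other activators and repressors of the clock. Of 13, 9 were positive (median 0.85), with 6 higher and 1 lower at an unadjusted edgeR p under 0.05, beside 3.76% and 4.69% of all genes tested, 0 past edgeR's adjusted threshold, 4 past that of DESeq2 and 0 past that of limma-voom. The median was 0.40 without setanaxib replicate 3, with 10 positive. Nr1d2, a repressor of the clock and the one of lowest p, was at 46.4, 54.6 and 85.4 CPM with setanaxib, against 25.2, 26.0 and 29.2 CPM with vehicle, with no overlap (log2 fold change 1.21, edgeR adjusted p = 0.303). Npas2, a clock activator and the lower one, was at 9.62, 10.6 and 11.8 CPM with setanaxib, against 14.3, 13.0 and 13.4 CPM with vehicle (log2 fold change -0.35, edgeR adjusted p = 0.506). Dbp was at 9.01, 12.5 and 70.7 CPM with setanaxib, against 5.87, 6.52 and 12.0 CPM with vehicle. Hlf was at 16.8, 19.9 and 47.8 CPM, against 14.2, 14.2 and 19.0 CPM, and both overlapped. Tef was at 69.1, 84.6 and 131.9 CPM, against 55.9, 55.4 and 62.5 CPM, with no overlap. The log2 fold changes of Dbp, Hlf and Tef were 1.92, 0.84 and 0.72, and 0.40, 0.23 and 0.41 without setanaxib replicate 3. The hour at which hearts were taken is not stated in the labels, and its part in any enzyme's level was not tested.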

How the data were processed

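RNA from 6 hearts was sequenced as read pairs of 150 bases, per the labels' protocols. The authors deposited 1 table of estimated counts per gene, whole numbers named in the style of StringTie's count script, per the file headers. FastQC 0.11.9, STAR 2.5.4b, featureCounts 2.0.1, DESeq2 1.42.0 and GRCm39 are named in the submitters' processing notes, with no role for each. The comparison had been planned for plain counts; the estimated counts needed no rounding. Genes were filtered with filterByExpr (minimum count 10), scaled by TMM and tested two-sided with edgeR 4.0.16 in R 4.3.3, with Benjamini-Hochberg adjustment at 0.05 over 20472 genes. DESeq2 1.42.0 and limma-voom 3.58.1 were alternatives. The test was tried on simulated data. Gene lengths, exon overlaps and shared 75-base words come from GENCODE M21 on GRCm38, which held all 190 gene IDs. The enzymes and lists were chosen with earlier results of these data known. Named were the 10 enzymes of lowest p in each direction whose mean log2 CPM was 0 or more, the most abundant of each role, the receptor reporters, the lowest p in each direction of each pathway list and the markers that moved with them; further enzymes and genes were named after their values were seen. Replicates were numbered by record, so that a shared number pairs nothing.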

Additional observations from a re-analysis of the deposited data

How the results depend on the processing

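No paired analysis was possible because no number in the labels is shared between the groups. DESeq2 called 505 genes and 3 enzymes (edgeR 1 and 0), limma-voom 0 genes, and leaving out 1 library gave 0 to 1 genes and 0 enzymes. Enzymes higher at an unadjusted p under 0.05 numbered 5, 8 with DESeq2 and 3 to 13 without 1 library. Lower ones numbered 2, 1 with library totals, 6 with no filter, 7 with DESeq2, 4 with limma-voom and 0 to 9 without 1 library. Enzymes above without overlap numbered 9, and 10 to 19 without 1 library; those below numbered 6, 3 with at least 1 CPM in 3 libraries and 6 to 17 without 1 library. The median of 0.16 was 0.086 with limma-voom and ranged over -0.13 to 0.22 without 1 library, refitted with its own filter. Without setanaxib replicate 3 and vehicle replicate 2, chosen after seeing the data, 0 genes were called, 10 enzymes were lower at that p, 19 lay above and 30 below, and the median was -0.14. Fewer samples make groups that do not overlap more frequent by construction. For the unadjusted p and for overlap, the same counts over all genes were not made under these alternatives. The enzyme counts given here are therefore no trait of the enzymes. The cause of the other changes was not tested.

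Of 448 alternatives for 32 named enzymes, 420 kept direction and side of the threshold, 3 passed it with DESeq2 (Aox1, Aldh6a1, Ces1d) and 25 changed sign, in 10 enzymes. Cyp27a1 (-0.0048) was 0.016 with library totals, 0.0063 with at least 1 CPM in 3 libraries and 0.0018 with limma-voom, and Cyp2f2 was -3.54 with limma-voom. Without 1 library, the log2 fold changes ranged over -0.15 to 0.084 for Cyp27a1, -11.63 to 5.92 for Cyp2f2, -0.17 to 1.13 for Aldh1a1, -0.26 to 0.58 for Cyp1b1, -0.14 to 0.26 for Cyp2j6, -0.27 to 0.54 for Cyp4b1, -0.09 to 0.47 for Fmo2 and -0.16 to 0.24 for Gstt1, the lowest being without setanaxib replicate 3 for each but Cyp27a1. Cyp20a1 changed sign to 0.030 without setanaxib replicate 1 and Gsta4 to -0.0099 without setanaxib replicate 2 (highest 0.090, without setanaxib replicate 3 and vehicle replicate 2). Without setanaxib replicate 3 and vehicle replicate 2, Aldh1a1 was -0.30, Cyp1b1 -0.40, Cyp2f2 -12.10, Cyp2j6 -0.25, Cyp4b1 -0.29, Fmo2 -0.24 and Gstt1 -0.22. Leaving out enzymes that share at least 20% of their 75-base words, also chosen after seeing the data, kept all counts within 1.5 times; leaving out enzymes with near-identical proteins was not run.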
